A study of Mus musculus with 10 samples.

Results

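The genes described here are 10 markers of the blood vessels and sinuses of the spleen: Pecam1, Cdh5, Cldn5, Stab2, Lyve1, Plvap, Emcn, Robo4, Sox17 and Madcam1. They were taken by gene name from the deposited table of 54532 mouse genes, where each has 1 row, and all 10 had a mean level high enough to be tested. Spleen RNA was sequenced from 5 mice lacking the MAP kinase phosphatase DUSP6 (the Dusp6tm1Jmol allele; the genotype label reads knockdown and the titles read HOM) and from 5 wild-type (WT) C57BL/6J mice, to ask what loss of DUSP6 does in inflammatory arthritis. All 10 mice had KRN serum-induced arthritis, in which arthritogenic serum is injected intraperitoneally on days 0 and 2, and the spleens were taken on day 9, and no unchallenged spleen was analysed here. The mice were 8 to 12 weeks old, both lines were bought from the Jackson Laboratories, and littermate controls were not described. A difference between the lines and an effect of the deletion, which is carried in every cell, therefore cannot be told apart. Each library is 1 spleen and is named by its group and the number in its title (KO 21, WT 67).

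The spleen filters blood through an open circulation. Blood leaves the red pulp through venous sinuses lined by elongated endothelial cells that carry the scavenger receptor stabilin-2, while the marginal sinus around the white pulp carries the addressin MAdCAM-1. Endothelial cells elsewhere are recognised by the junction proteins PECAM-1, VE-cadherin and claudin-5, by the sialomucin endomucin, by the fenestral diaphragm protein PLVAP and by transcription factors such as SOX17. ETS-family transcription factors, among them ERG, bind a GGAA core and are known activators of many of these genes.

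All values are FPKM, the number of fragments per kilobase of gene, scaled to the depth of the library, as computed by the authors. They are per length, so levels of different genes can be set side by side, and other scalings between libraries were tried as alternatives. Each value corresponded to a whole number of reads, and the libraries held 14990474 to 19822673 reads (median 17298955) in the DUSP6 KO group and 15611652 to 18422147 (median 16201982) in the WT group. Dusp6 itself was 0.44 ± 0.117 FPKM (SD, n = 5) in the DUSP6 KO spleens and 19.4 ± 2.81 FPKM (n = 5) in the WT spleens, with no overlap, so its level separated the groups as they are labelled. Xist was 0 to 0.0206 FPKM and the Y-linked Ddx3y 14.4 to 18.6 FPKM over the 10 libraries, the pattern of male mice. Libraries WT 67 and WT 65 stood apart in holding RNA of the exocrine pancreas, an organ that touches the spleen. The summed level of 4 pancreatic enzyme genes was 6576 FPKM in WT 67 and 89.7 FPKM in WT 65, against 0.0527 to 0.452 FPKM in the other 8 libraries. The summed level of 4 erythroid genes ranged from 8854 FPKM (KO 21) to 42929 FPKM (KO 73) in the DUSP6 KO group and from 10541 FPKM (WT 67) to 21618 FPKM (WT 77) in the WT group. Each member is described below with and without both of these WT libraries (an exclusion chosen after the data were seen), and their part in the results was not tested.

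In these whole-spleen libraries the endothelial programme was present at widely different levels from gene to gene, and no member passed the test across all genes for a difference between genotypes. Plvap was the most abundant member (132 FPKM over the 10 libraries, higher than 98.6% of the genes tested), followed by Cldn5 (32.8 FPKM), Pecam1 (29.5 FPKM), Stab2 (16.0 FPKM), Madcam1 and Cdh5 (13.4 FPKM each), Robo4 (2.28 FPKM), Sox17 (1.66 FPKM), Emcn (0.325 FPKM) and Lyve1 (0.314 FPKM). The ranges over the libraries did not overlap at 3 steps of this order: Plvap over Cldn5 by 4.01-fold, Cdh5 over Robo4 by 5.87-fold, and Sox17 over Emcn by 5.11-fold. The other neighbours overlapped. Madcam1 was above Cdh5 in 4 of 10 libraries and Emcn above Lyve1 in 5 of 10, so that neither pair has an order beyond its spread. The low level of Lyve1, the hyaluronan receptor known from lymphatic and liver sinusoidal endothelium, and of Emcn, a mucin of venous and capillary vessels, contrasted with that of Stab2 and Plvap in the same RNA.

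**Figure D1:**
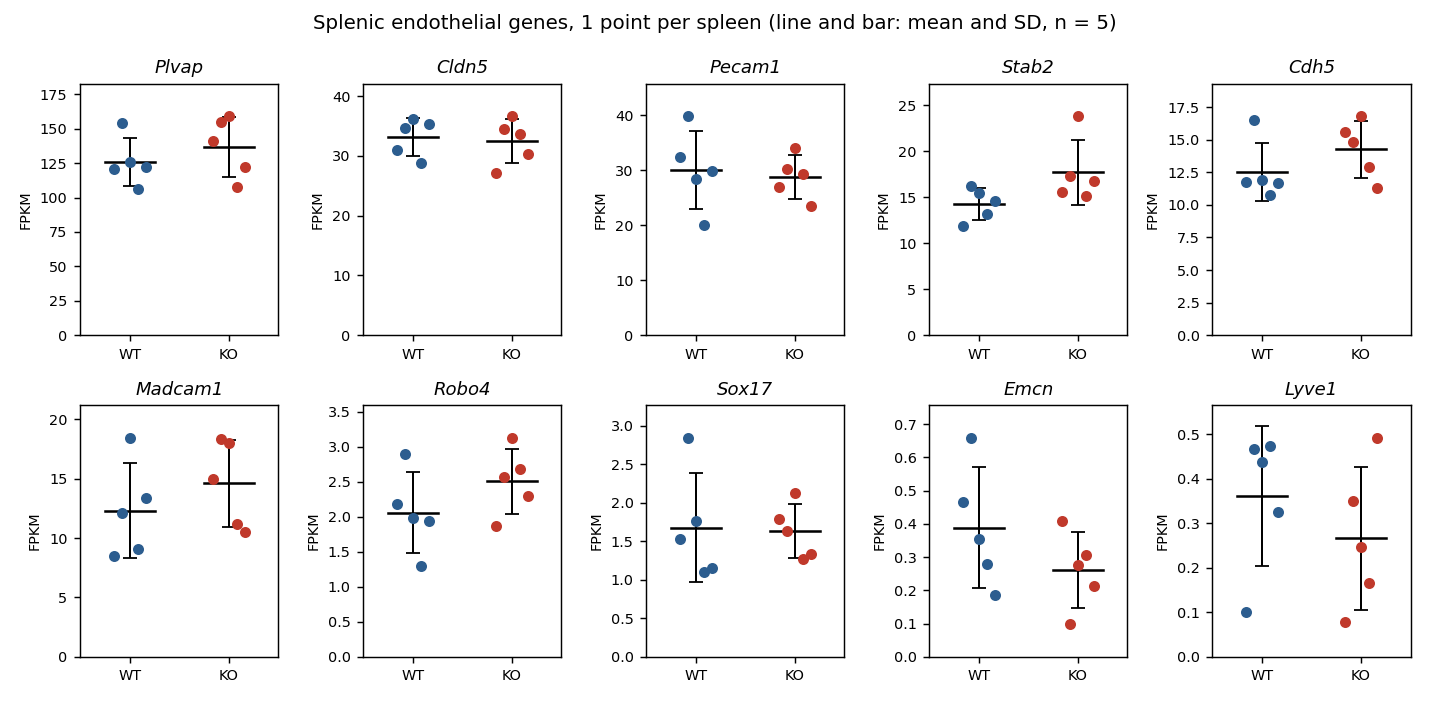
FPKM of the 10 genes in each spleen (points), with the group mean (line) and SD (bar) for n = 5 WT (blue) and n = 5 DUSP6 KO (red) spleens; every panel has its own linear axis starting at 0 and panels run from the most abundant gene to the least. The genotypes overlap in every panel, and 3 of the 5 DUSP6 KO spleens lie above all WT spleens for Stab2.

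The start regions of 3 members are shown because they differ in how many matches to AGGAA, a longer form of the ETS core, precede the gene. A start region from RefSeq (GRCm38.p6) was matched to 5 of the 10 members, which does not mean that RefSeq lacks the others. The 160 bases before the annotated start are printed 5′ to 3′ on the gene's strand. Gene positions given with each member below are those of the deposited table, in the same build. Capitals mark the ETS core GGAA with a preceding A (AGGAA) or its reverse complement (TTCCT), searched on both strands. A GGAA or TTCC without the added letter, as 1 TTCC before Stab2, is not marked or counted.
Stab2, chr10:87008026-87008185, minus strand: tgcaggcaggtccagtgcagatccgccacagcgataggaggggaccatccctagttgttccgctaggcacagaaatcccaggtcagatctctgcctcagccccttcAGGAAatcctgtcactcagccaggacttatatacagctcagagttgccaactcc
Emcn, chr3:137340907-137341066, plus strand: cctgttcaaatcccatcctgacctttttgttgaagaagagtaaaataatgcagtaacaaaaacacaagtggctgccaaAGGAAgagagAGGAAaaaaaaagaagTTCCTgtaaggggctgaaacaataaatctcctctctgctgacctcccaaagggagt
Cldn5, chr16:18776687-18776846, plus strand: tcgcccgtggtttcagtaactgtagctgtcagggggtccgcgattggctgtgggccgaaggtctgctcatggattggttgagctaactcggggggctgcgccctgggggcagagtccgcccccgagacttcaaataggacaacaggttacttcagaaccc
The stretch before Stab2 held 1 match, that before Emcn held 3, and that before Cldn5 held none. Among all 32851 RefSeq start regions used, 44.1% of the same 160-base stretches hold at least 1 match. Of the 5 members with a matched start region 3 did (Stab2, Emcn and Madcam1, not Robo4 or Cldn5). A match is a description of the letters and was not tested as a binding site. In the 300 bases around the start, the ETS motif was present in 4 of the 5 members and in 66.7% of all windows, a SOX motif (AACAAT or ATTGTT) was present in 1 of the 5 members, Emcn, and in 10.7% of all windows, while a GATA motif (AGATAA or TTATCT) was present in none of the 5 and in 11.2% of all windows.

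The first comparison asks whether the junction and adhesion genes differ between genotypes. Pecam1 (ENSMUSG00000020717, chr11:106654217-106750628, minus strand), which encodes the adhesion protein of endothelial junctions and is also present on platelets and leukocytes, was 29.3, 34.1, 23.5, 26.9 and 30.2 FPKM in KO 26, 21, 73, 01 and 03, and 32.4, 39.8, 28.5, 20.1 and 29.8 FPKM in WT 65, 67, 73, 77 and 83. The WT spleens held both the highest value (WT 67) and the lowest (WT 77), and the DUSP6 KO spleens lay between them. Its log2 fold change (DUSP6 KO minus WT, on log2(FPKM + 0.1)) was -0.04 (SE 0.17, 95% interval -0.41 to 0.33; limma adjusted p = 0.99). Its sign turned when 1 library was left out, to 0.07 without WT 67 and to 0.03 without KO 73. It was -0.18 without WT 77 and 0.15 without both libraries that held pancreatic RNA. In bulk tissue, fewer endothelial cells and less RNA of a gene per cell cannot be told apart, here or for any member below.

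Cdh5 (ENSMUSG00000031871, chr8:104101625-104144511, plus strand), encoding VE-cadherin, the adhesion molecule of endothelial adherens junctions, was 12.9, 16.8, 11.3, 15.6 and 14.8 FPKM in the DUSP6 KO spleens and 11.8, 16.5, 11.9, 10.8 and 11.7 FPKM in the WT spleens, in the same order of libraries as above. In the WT group 4 spleens were close together and WT 67 stood far above them, at the level of the highest DUSP6 KO spleen. The log2 fold change was 0.19 (SE 0.14, 95% interval -0.12 to 0.49; limma unadjusted p = 0.2, adjusted p = 0.97), and leaving out 1 library moved it from 0.13 without KO 21 (unadjusted p = 0.39) to 0.29 without WT 67 (unadjusted p = 0.034). Without both libraries that held pancreatic RNA it was 0.30 (unadjusted p = 0.054). Cldn5 (ENSMUSG00000041378, chr16:18776847-18778262, plus strand), encoding the tight junction protein claudin-5, was 33.6, 36.6, 30.3, 27.2 and 34.5 FPKM in the DUSP6 KO spleens and 31.0, 34.7, 36.1, 28.8 and 35.3 FPKM in the WT spleens. Its groups overlapped almost completely, and it had the smallest spread of the 10 members (SD 0.16 within groups on the log2 scale). The difference in Cldn5 was -0.03 (SE 0.10, 95% interval -0.25 to 0.18; limma adjusted p = 0.99), the narrowest interval of the 10, and without both libraries that held pancreatic RNA it was -0.04. The sign of this small difference turned without KO 01, to 0.03.

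Stab2 (ENSMUSG00000035459, chr10:86841198-87008025, minus strand), the hyaluronan and scavenger receptor of sinus endothelium, was the member nearest to a difference between genotypes. It was 15.1, 23.8, 16.8, 15.6 and 17.3 FPKM in KO 26, 21, 73, 01 and 03, and 11.9, 16.2, 15.5, 13.2 and 14.6 FPKM in WT 65, 67, 73, 77 and 83. Relative to the WT median every one of the 5 DUSP6 KO spleens was higher, and 3 of 5 exceeded every WT spleen, although the groups overlapped. The means were 17.7 ± 3.51 FPKM and 14.3 ± 1.74 FPKM (SD, n = 5 each). The log2 fold change was 0.30 (SE 0.13, 95% interval 0.00 to 0.59) with a limma unadjusted p = 0.048, an exact two-sided permutation p = 0.048 and a limma adjusted p = 0.88. Stab2 was thus the 1 member of 10 higher at an unadjusted p under 0.05, where 2.62% of the 21296 genes tested were, and it failed the correction over all genes. The value rested in part on the highest spleen: without KO 21 the log2 fold change was 0.19 (unadjusted p = 0.095). Without both WT libraries that held pancreatic RNA it was 0.27 (unadjusted p = 0.10). In the GENCODE M21 annotation 141 bases of its exons, 1.61% of its length, are shared with an antisense gene, Gm16268, at 0.582 FPKM. Whether the authors' counting used strand was not stated.

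Lyve1 (ENSMUSG00000030787, chr7:110850607-110863239, minus strand) was 0.165, 0.247, 0.491, 0.0791 and 0.351 FPKM in the DUSP6 KO spleens and 0.10, 0.467, 0.437, 0.474 and 0.325 FPKM in the WT spleens. These values rest on 5 to 21 reads and 5 to 26 reads, respectively, and the groups overlapped throughout. The fitted difference was -0.35 (SE 0.41, 95% interval -1.26 to 0.55; limma adjusted p = 0.99), so that at this depth even a change of 1 log2 unit downward would lie inside the interval. The estimate moved several-fold with the settings, to -0.10 with a pseudocount of 1 FPKM, -0.57 with voom on the recovered reads, -0.12 without KO 01 and -0.63 without WT 65. It was -0.59 without both libraries that held pancreatic RNA. Emcn (ENSMUSG00000054690, chr3:137341067-137432185, plus strand) was similarly sparse, with 9 to 48 reads in the DUSP6 KO and 18 to 68 reads in the WT libraries. It was 0.307, 0.276, 0.214, 0.410 and 0.10 FPKM in the DUSP6 KO and 0.465, 0.658, 0.354, 0.278 and 0.186 FPKM in the WT spleens. The mean was lower in the DUSP6 KO spleens and WT 67 was the highest library. The difference was -0.42 (SE 0.34, 95% interval -1.18 to 0.34; limma adjusted p = 0.98). It ranged from -0.13 with a pseudocount of 1 FPKM to -0.56 with one of 0.01 FPKM, was -0.22 without KO 03, -0.24 without WT 67 and -0.59 without WT 83, and was -0.08 without both libraries that held pancreatic RNA.

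Plvap (ENSMUSG00000034845, chr8:71497765-71511752, minus strand), whose product forms the diaphragms of fenestrae and caveolae and takes part in vascular permeability, was 108, 159, 122, 141 and 155 FPKM in the DUSP6 KO spleens and 121, 154, 126, 106 and 122 FPKM in the WT spleens. The 3 high DUSP6 KO values stood beside 1 high WT value, WT 67, and the lowest values of the groups were nearly equal. Its log2 fold change was 0.12 (SE 0.13, 95% interval -0.18 to 0.41; limma adjusted p = 0.99), from 0.06 without KO 21 or WT 77 to 0.20 without KO 26, and 0.20 without both libraries that held pancreatic RNA. Robo4 (ENSMUSG00000032125, chr9:37401897-37415115, plus strand), a roundabout receptor that stabilises vessels, was 2.68, 3.12, 2.29, 1.87 and 2.56 FPKM in the DUSP6 KO spleens and 2.18, 2.90, 1.98, 1.29 and 1.94 FPKM in the WT spleens. The WT spleens spread from the lowest value of all, WT 77, to nearly the highest, WT 67. The log2 fold change of Robo4 was 0.29 (SE 0.21, 95% interval -0.16 to 0.75; limma unadjusted p = 0.18, adjusted p = 0.96). It was 0.15 without WT 77 (unadjusted p = 0.43), 0.42 without WT 67 (unadjusted p = 0.051) and 0.51 without both libraries that held pancreatic RNA (unadjusted p = 0.038, adjusted p = 0.93).

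Sox17 (ENSMUSG00000025902, chr1:4490931-4497354, minus strand), a transcription factor of arterial endothelium, was 1.27, 2.13, 1.34, 1.79 and 1.64 FPKM in the DUSP6 KO spleens and 1.53, 2.84, 1.77, 1.1 and 1.16 FPKM in the WT spleens. WT 67 was again the highest library and WT 77 the lowest. On the log2 scale the genotypes differed by 0.02 (SE 0.25, 95% interval -0.54 to 0.58; limma adjusted p = 1), and leaving out 1 library at a time moved it from -0.10 without WT 77 to 0.22 without WT 67. Without both libraries that held pancreatic RNA it was 0.27. Of its exon bases 16.8% are shared with the gene Gm37587 on the opposite strand, which is at 0.00367 FPKM.

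Madcam1 (ENSMUSG00000020310, chr10:79664559-79668537, plus strand), the addressin that binds the integrin α4β7 and that lines the splenic marginal sinus, was 11.2, 18, 10.5, 15.0 and 18.3 FPKM in the DUSP6 KO spleens and 8.47, 12.1, 18.4, 9.05 and 13.4 FPKM in the WT spleens. High and low spleens occurred in both groups, and the highest value was in WT 73. Its spread within groups (SD 0.41 on the log2 scale) was larger than the median of 0.18 for genes of like level, those within 1.5-fold of its mean. The log2 fold change was 0.26 (SE 0.23, 95% interval -0.25 to 0.78; limma adjusted p = 0.98). It ranged from 0.14 without WT 65 to 0.42 without WT 73 (unadjusted p = 0.075), and was 0.12 without both libraries that held pancreatic RNA. Its receptor and the lymphotoxin pathway that acts on this vessel were followed through 8 genes. All were tested, and none was higher or lower at an unadjusted p under 0.05. Over all genes tested 2.62% were higher and 3.03% lower at that p, so a count of 0 among 8 genes is uninformative. The median log2 fold change of the 8 genes was -0.05. Ltb, a lymphotoxin subunit and the most abundant of the list, was 168 FPKM over the 10 libraries. Itgb7, the β7 chain, named after its values were seen, stood at -0.21 on the log2 scale (limma adjusted p = 0.98).

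**Figure D2:**
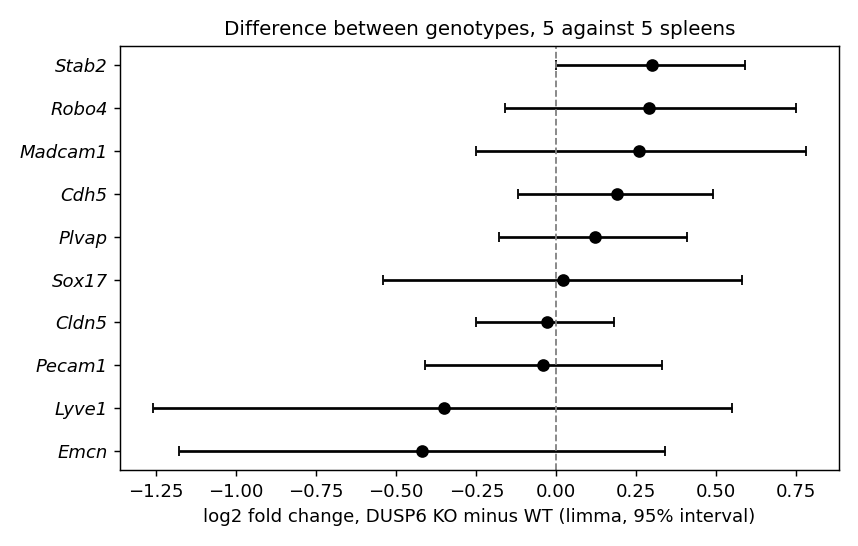
Log2 fold change of each gene (x axis, DUSP6 KO minus WT, on log2(FPKM + 0.1)) with its 95% interval from limma, for 5 against 5 spleens. The points run from -0.42 (Emcn) to 0.30 (Stab2), 9 of the 10 intervals include 0, and that of Stab2 begins at 0.00; the widest are those of Lyve1 and Emcn.

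Counted together, 6 members had a positive and 4 a negative log2 fold change, with a median of 0.07 beside -0.00 over all 21296 genes tested. The median rested on single libraries: it was -0.01 without KO 21 or without WT 77, 0.04 without KO 03, 0.12 without KO 73, 0.15 without KO 26 and 0.21 without WT 67, and 0.18 without both libraries that held pancreatic RNA. It was 0.15 over the 8 members with a mean of at least 1 FPKM. None of the 10 reached a limma adjusted p of 0.05, which 15 genes (0.0704%) did. One was higher (Stab2; background 2.62%) and none was lower at an unadjusted p under 0.05 (background 3.03%). No member had groups that did not overlap in FPKM, as 1.11% of the genes tested had.

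The levels of several members were correlated across the 10 spleens. The correlations are given as descriptions over n = 10 libraries that share one normalization, after subtracting each group's mean. Of the 45 pairs of members, 21 had a Pearson's r above 0.5, with a median of 0.47 and a range from -0.43 (Lyve1 and Emcn) to 0.92. That is 46.7% of the member pairs, beside 19.5% of all pairs among the 11447 protein-coding genes of at least 1 FPKM. The 2 shares cover unlike genes, since Emcn (0.325 FPKM) and Lyve1 (0.314 FPKM) are below that cut. Of the pairs that hold Emcn or Lyve1, only Emcn with Sox17 was above 0.5 (r = 0.60). The 4 highest values were 0.92 between Pecam1 and Robo4, 0.89 between Cdh5 and Sox17, 0.86 between Cdh5 and Plvap and 0.85 between Plvap and Sox17. With the mean of 24 other endothelial genes (the endothelial core list, holding for example the angiopoietin receptor Tek and the transcription factor Erg), r was 0.84 for Stab2, 0.81 for Cdh5 and Plvap, 0.80 for Sox17, 0.65 for Pecam1, 0.59 for Robo4, 0.51 for Madcam1, 0.47 for Cldn5, 0.34 for Emcn and 0.02 for Lyve1. Among those 11447 genes the median was 0.17, and 29.2% were above 0.5. KO 21 was the highest library for 5 members (Cdh5, Stab2, Plvap, Robo4 and Cldn5), and WT 77 the lowest for 5 (Pecam1, Cdh5, Plvap, Robo4 and Sox17).

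The same libraries differed in erythroid RNA in the opposite sense. KO 21 and WT 67, where many members were highest, were the libraries with the least erythroid RNA of their groups, and KO 73 and WT 77 had the most. With the erythroid mean, r was -0.85 for Cdh5, -0.82 for Pecam1, -0.81 for Plvap, -0.71 for Robo4, -0.70 for Stab2, -0.67 for Sox17, -0.66 for Cldn5, -0.55 for Madcam1, -0.08 for Emcn and 0.05 for Lyve1. Over all 11447 genes the median was -0.17, and 34.7% were below -0.5, so a negative value is common among the genes of these libraries. With the erythroid mean as a covariate, an alternative chosen after the data were seen, the log2 fold changes were 0.34 for Stab2 (limma unadjusted p = 0.0072, adjusted p = 0.37), 0.24 for Cdh5 (unadjusted p = 0.014) and 0.36 for Robo4 (unadjusted p = 0.048). None of these reached an adjusted p of 0.05, and in that fit 4.0% of all genes tested were higher at an unadjusted p under 0.05.

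**Figure D3:**
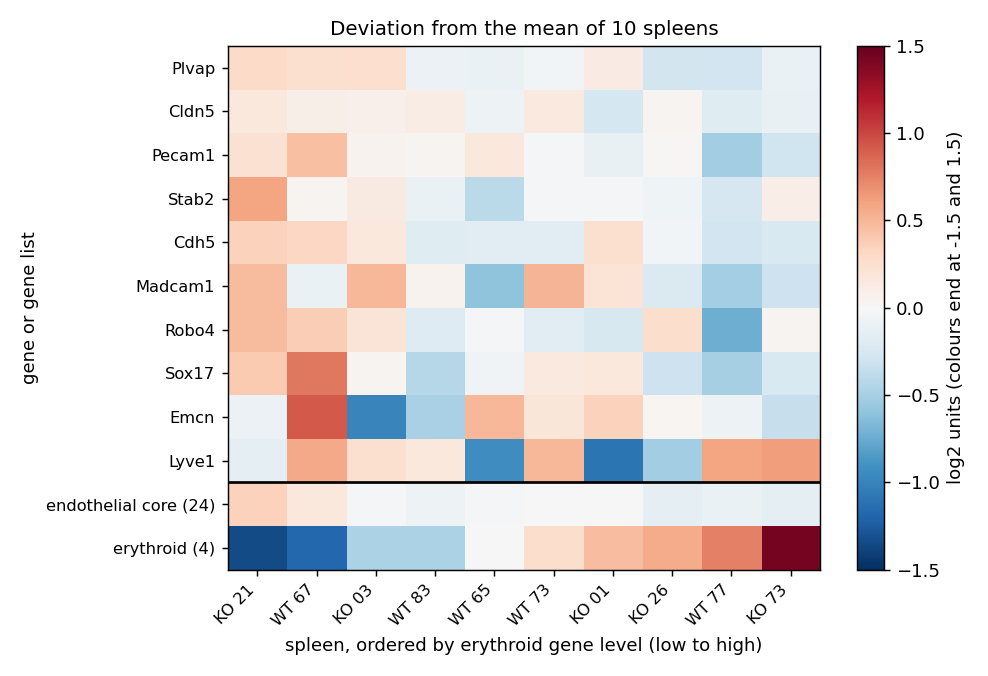
Deviation of each gene, and of the mean of 24 endothelial core and 4 erythroid genes, from its mean over the 10 spleens (colour, log2 units), with the spleens ordered by erythroid level from left to right. Most members are above their mean (red) in KO 21 and WT 67, at the left, and below it (blue) in WT 77 toward the right; Emcn and Lyve1 do not follow this order.

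Set against the other endothelial genes of the same library, Stab2 separated the genotypes. Its log2 level minus the mean of the 24 core genes was 1.64, 1.79, 1.78, 1.54 and 1.70 in KO 26, 21, 73, 01 and 03, and 1.18, 1.43, 1.52, 1.41 and 1.53 in WT 65, 67, 73, 77 and 83. The lowest DUSP6 KO spleen (KO 01) was just above the highest WT spleen (WT 83), and the means differed by 0.28 (1.69 ± 0.10 against 1.41 ± 0.14, SD, n = 5 each). This scale was chosen after the values were seen and carries no test. The other 9 members overlapped on it, and 1.24% of all genes tested have groups that do not overlap on it.

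**Figure D4:**
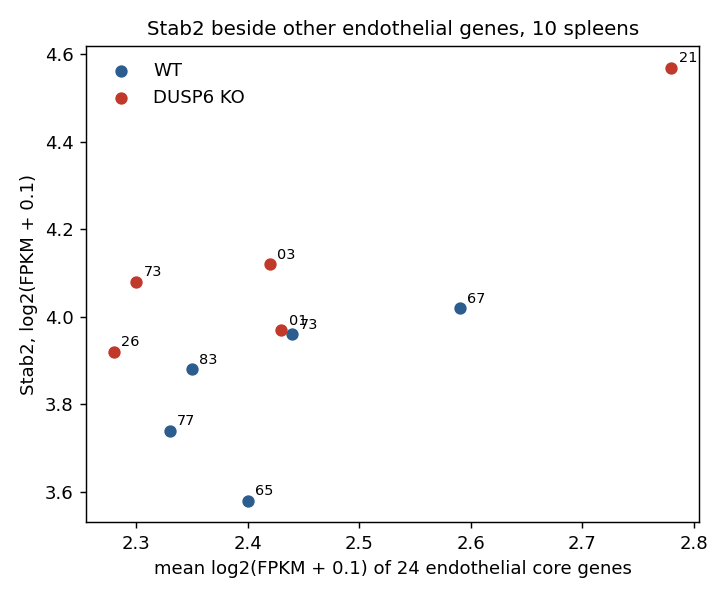
Stab2 (y axis, log2(FPKM + 0.1)) against the mean of 24 endothelial core genes (x axis, same scale), 1 point per spleen labelled with its number, WT in blue and DUSP6 KO in red; neither axis starts at 0. KO 21 is highest on both axes, and at a like core level the DUSP6 KO spleens lie above the WT spleens, by least for KO 01 beside WT 73.

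In the wider vascular lists no gene reached a limma adjusted p of 0.05. The counts below at an unadjusted p under 0.05 stand beside shares of 2.62% higher and 3.03% lower over all genes tested. At those shares a count of 0 in a short list is uninformative. Of the 24 core genes, Eng, the endoglin co-receptor for TGF-β family ligands and the most abundant of the list (40.7 FPKM), had a log2 fold change of 0.29 (limma unadjusted p = 0.0084, adjusted p = 0.62) and Tek one of 0.35 (unadjusted p = 0.025, adjusted p = 0.79). Nos3, endothelial nitric oxide synthase, was lower at -0.40 (unadjusted p = 0.026, adjusted p = 0.79). These 2 higher and 1 lower genes are those at an unadjusted p under 0.05, and the median of the list was 0.03. Of 7 further sinus scavenger genes none was called in either direction, with a median of 0.02. The list includes Dnase1l3, a secreted nuclease (42.0 FPKM), and Stab1, the paralogue of Stab2, which was 3.46 FPKM in the DUSP6 KO and 3.38 FPKM in the WT spleens (log2 fold change 0.02, adjusted p = 1). Stab1, and Prox1 in the next list, were named after their values were seen.

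Among 6 lymphatic genes Nrp2, a semaphorin and VEGF-C co-receptor, was higher by 0.35 (limma unadjusted p = 0.046, adjusted p = 0.87) and none was lower, and Prox1, the transcription factor that specifies lymphatic cells, was 1.16 ± 0.344 and 1.11 ± 0.182 FPKM (SD, n = 5 each). Among 11 arterial and venous genes Sema3g, an arterial semaphorin, was lower by the largest margin of any endothelial gene called (3.49 ± 0.55 against 5.15 ± 0.894 FPKM, log2 fold change -0.55, unadjusted p = 0.0028, limma adjusted p = 0.45), and the chemokine-binding receptor Ackr1 was the most abundant at 11.1 FPKM. Of 4 adhesion genes of activated endothelium none was called, Vcam1 being the most abundant at 78 FPKM. Which cells of the spleen made this RNA was not tested. The 9 vascular growth factor genes tested all had positive log2 fold changes, from 0.04 to 0.35, with a median of 0.17, but none reached an unadjusted p under 0.05. Vegfb was the most abundant of them at 15.3 FPKM. Over all genes 49% of log2 fold changes were positive.

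Genes of neighbouring cell types are given because they share these samples. Of 10 pericyte and smooth muscle genes 2 were higher: Pdgfrb, the pericyte PDGF receptor, by 0.57 (limma unadjusted p = 0.0059, adjusted p = 0.56) and Notch3 by 0.41 (unadjusted p = 0.023). The list was split, 5 positive and 5 negative with a median of 0.03, and Acta2, its most abundant gene at 87 FPKM, stood at -0.12. Of 6 fibroblastic reticular genes Dpt, a matrix protein gene, was higher by 0.33 (unadjusted p = 0.029), and Col1a2 was the most abundant at 14.7 FPKM. The median of that list was 0.20, and Pdpn stood at -0.99 (limma adjusted p = 0.94). Of 8 red pulp macrophage genes Adgre1, encoding F4/80, was higher by 0.38 with no overlap between groups (unadjusted p = 0.0074, adjusted p = 0.59), and Cd163, the haemoglobin scavenger receptor, by 0.39 (unadjusted p = 0.014). The macrophage list had a median of 0.07, with Cd5l at -0.50 (limma adjusted p = 0.94). Pdpn and Cd5l were named after their values were seen. These counts stand beside the same shares over all genes (2.62% higher, 1.11% without overlap). Platelets also carry Pecam1. All 7 megakaryocyte and platelet genes had negative log2 fold changes, with a median of -0.39, and 2 were lower at an unadjusted p under 0.05, Pf4 by -0.52 and Itga2b by -0.49 (both unadjusted p = 0.02, limma adjusted p = 0.77). Their summed level was 229 to 324 FPKM in the DUSP6 KO and 217 to 509 FPKM in the WT spleens. Its part in the Pecam1 values was not tested. Ppbp was the most abundant platelet gene at 161 FPKM and Hmox1, haem oxygenase, the most abundant macrophage gene at 433 FPKM. No gene at an unadjusted p under 0.05 was found among 4 genes each of the mesothelium (median log2 fold change -1.18), exocrine pancreas (-4.52), erythroid cells (0.24), B cells (-0.21) and T cells (0.03). The most abundant gene of each was Wt1 (2.74 FPKM), Pnlip (206 FPKM), Hba-a1 (18943 FPKM), Cd79a (432 FPKM) and Cd8a (24.5 FPKM), in that order. No gene of any of these lists reached an adjusted p of 0.05.

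**Figure D5:**
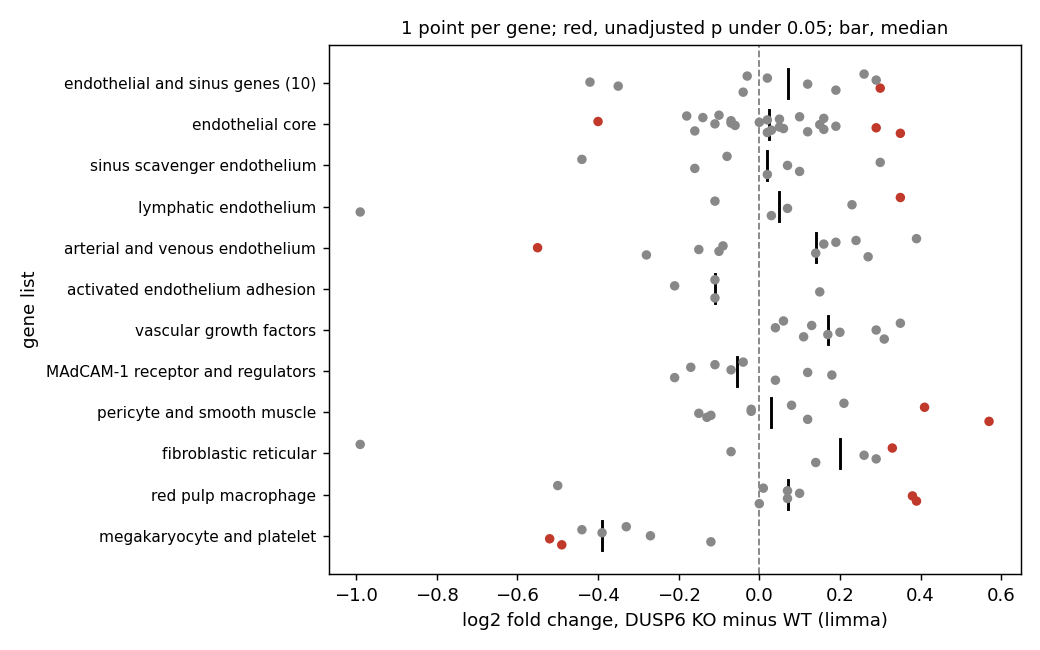
Log2 fold change of every tested gene (x axis, DUSP6 KO minus WT, limma) in the 10 endothelial and sinus genes and in 11 other lists (y axis), 1 point per gene, red for an unadjusted p under 0.05, with the list's median as a black bar. The medians of the endothelial lists lie between -0.11 and 0.14, that of the vascular growth factors at 0.17 and that of the megakaryocyte and platelet genes at -0.39.

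Stab2 and Madcam1 are on chromosome 10, which also carries Dusp6. Stab2 lies 12.4 Mb from Dusp6 and Madcam1 19.6 Mb from it. Of the 18 genes tested within 1 Mb of Stab2, none was higher and 1 was lower at an unadjusted p under 0.05, and their median log2 fold change was 0.08. Of the 69 within 1 Mb of Madcam1, 2 were higher and 1 was lower, with a median of 0.01. None of these reached a limma adjusted p of 0.05. The windows do not reach Dusp6, and genes outside them, including those between Stab2 and Dusp6, were not counted here.

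The genes with the pattern most like each member over the 10 libraries are given as a description, since the best of many genes over 10 libraries have a high r by selection alone. For each member the 2 protein-coding genes with the highest r were taken after subtracting each group's mean, from the 11447 genes of at least 1 FPKM without the member itself, and r was between 0.88 and 0.99. They were, among others, C130074G19Rik and Cyp4f16 for Pecam1 (r of 0.99 and 0.98), Asah1 and Sbf2 for Stab2 (0.96 each), Ddx3y and Endou for Madcam1 (0.94 each), and Dcn and Sec11c for Lyve1 (0.94 and 0.93). Of these 20 genes none was in the endothelial lists used here and none differed between genotypes at an adjusted p of 0.05.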

How the data were processed

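Per the methods of the study, poly-A RNA of each spleen was sequenced paired-end, aligned with Hisat2 2.0.5 and counted per gene with featureCounts 1.5.0-p3, and the authors deposited FPKM values. The submitters' processing notes name the build hg38, whereas the gene identifiers and coordinates are of mouse: 53462 of 54409 gene identifiers (98.3%) had the same coordinates in GENCODE M21 (GRCm38), as did all 10 members. Reads were recovered as whole numbers from FPKM and gene length (100% within 0.001 reads). Columns of the authors' own DESeq2 comparison were not used. The 21296 genes averaging 0.1 FPKM or more were tested on log2(FPKM + 0.1) with limma 3.58.1 (R 4.3.3, empirical Bayes with a trend), and p-values were adjusted by Benjamini-Hochberg over all of them. Single genes were also compared by an exact two-sided permutation test, whose smallest possible p is 0.0079. The fit was tested on simulated data with and without planted changes. Those changes were larger than any fitted for a member, so recovery of differences of the size seen here was not tested. Genes to which the correlations of members were compared had at least 1 FPKM. The labels do not say whether samples are from separate litters, so p-values measure the spread between these spleens.

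The members and the 16 other gene lists were chosen with earlier results of these data known. Named are all members, and in each other list the genes at an unadjusted p under 0.05 (at most 4) and the most abundant gene, and any other gene of those lists given a value is stated to have been named after its values were seen. Ccl21a and Ccl19 have several rows and were left out. Alternatives were other pseudocounts, filters, scalings and variance models, voom on the recovered reads, and leaving out each library. Start regions are from RefSeq (GRCm38.p6).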

Additional observations from a re-analysis of the deposited data

Results flagged for a closer look

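In 22 groups of 5 values (each member and the library total, by genotype) the highest or lowest sample was compared with the others by Dixon's ratio, which chance alone exceeds in about 1 in 20 groups. Cdh5 was 16.5 FPKM in WT 67, against 10.8 to 11.9 FPKM in the other 4 WT spleens. Stab2 was 23.8 FPKM in KO 21, against 15.1 to 17.3 FPKM in the other 4 DUSP6 KO spleens. WT 67 also had the most reads of its group, 18422147 against 15611652 to 16348136.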

How the results depend on the processing

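No member reached an adjusted p of 0.05 with limma under the 20 alternatives listed for the fit or the 2 added later. The number of members higher at an unadjusted p under 0.05 (1, Stab2) became 0 without the variance trend, with quantile normalization and with voom on recovered reads, ranged from 0 to 2 when single libraries were left out, and was 3 with the erythroid covariate, an alternative added after seeing the data, under which 4.0% of all genes were higher at that p. It was 2 without WT 67 and 0 without KO 21, KO 73, KO 03, WT 65, WT 77 or WT 83. Of all genes tested, 2.28% to 3.01% were higher at that p when single libraries were left out. The share was 2.78% without the variance trend, 3.05% with quantile normalization and 2.24% with voom. The log2 fold change of Stab2 stayed positive, from 0.19 to 0.35, over those 20, with unadjusted p from 0.021 to 0.12 and a lowest adjusted p of 0.73. Without both WT libraries that held pancreatic RNA the member at an unadjusted p under 0.05 was Robo4 in place of Stab2. In that fit 2.24% of all genes tested were higher at that p. Relative to the core genes Stab2 was higher by 0.22 to 0.32 with other pseudocounts and with single libraries left out, the settings run for it. With a minimum mean of 1 FPKM, Lyve1 and Emcn were not tested. No paired analysis was run, since neither the labels nor the paper describe pairs of mice. The number 73 occurs in both groups and is not stated to mark a pair.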
